A study of Homo sapiens with 6 samples.

Results

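The hemidesmosome and laminin-332 genes encode the machinery by which a basal epithelial cell holds on to its basement membrane. The 9 genes examined were ITGA6, ITGB4, COL17A1, CD151, DST, PLEC, LAMA3, LAMB3 and FERMT1. They are 9 of the 25940 names to which the array's gene probes are annotated, and every gene probe annotated to one of them was taken, 16 of 34127. The members were named as genes of basal cell anchorage, with earlier results of these data known, so that their counts are not those of a list chosen blind.

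In a hemidesmosome, the integrin α6β4 binds laminin outside the cell, and plectin and the epithelial form of dystonin tie it to keratin filaments inside. Collagen XVII crosses the membrane beside the integrin, and the tetraspanin CD151 associates with laminin-binding integrins. The ligand, laminin-332, includes the α3 and β3 chains, the products of LAMA3 and LAMB3. In the breast, these structures are found on basal (myoepithelial) cells, which lie on the basement membrane, whereas luminal cells face the lumen.

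RNA from 3 sorts each of pLUM and pLB cells was hybridized to 6 one-colour Agilent arrays. Both lines descend from T47D, a luminal breast cancer cell line that expresses estrogen and progesterone receptors, and each was isolated from a xenograft in mice. pLUM (pure luminal) cells came from an estrogen-treated (E) tumor and were sorted as CLD3+CD49f-. They were propagated and maintained with estradiol, and those profiled received 1 nM estradiol for 72 h. By contrast, pLB (pure luminobasal) cells came from an E plus progesterone (E+P) tumor, were sorted as CLD3-CD49f+ and were kept under estrogen withdrawal (EWD). Culture before the first sort lasted about 2 months for pLUM and 2.5 months for pLB, with about 2 months more for each between sorts. Cells were stained for cytokeratin 5 (CK5) and sorted again before RNA extraction, and which CK5 fraction was hybridized is not stated in the labels. Line and hormone coincided on all 6 arrays and cannot be told apart, nor can either be told apart from the tumor of origin, since the labels name a single tumor for each line. The p-values measure the spread between sorts of these cultures. Because RNA was measured in bulk, fewer expressing cells and less RNA per cell cannot be told apart either.

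The signal was the processed intensity of each spot, divided by its array's 75th percentile (449 to 869 intensity units) and expressed as log2. Between 21280 and 22772 probes per array were well above background. Across tested probes, Pearson's r was 0.972 to 0.991 between arrays of the same line and 0.780 to 0.806 between lines. The 3 pLUM arrays and pLB replicate 1 shared a slide, and pLB replicates 2 and 3 were on another. Of markers of the labelled cell types, 8 of 9 luminal markers were lower in pLB, all but KRT18 (log2 -0.62, not called), and 6 of 6 basal markers were higher. Among them, CLDN3 encodes CLD3 and KRT5 encodes CK5, antigens of the sorts, so that these genes are no independent check. KRT5, KRT14, TP63 and SNAI2 were above background on no pLUM array and passed the filter on dim probes through pLB alone, and PGR through pLUM alone. Markers of other cell types were also examined. COL1A2, CD68 and VWF were higher in pLB, but the fibroblast markers COL3A1, PDGFRB, DCN and LUM and the endothelial markers PECAM1 and TEK were above background on no array. The summed signal of the 6 fibroblast markers was 0.767 to 0.966 times the 75th percentile on pLUM arrays and 0.786 to 1.14 times on pLB arrays, that of the 4 endothelial markers 0.0709 to 0.107 and 0.0922 to 0.204 times, and that of the 5 leukocyte markers with a probe 0.470 to 0.595 and 0.428 to 0.552 times. The part of such cells in the results was not tested. With only 3 arrays a line, the number of arrays sets the precision of every value.

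Calls required that the lines differ by at least 2-fold, with p from limma under 0.05 after Benjamini-Hochberg adjustment over all 23103 tested probes. Of the 16 member probes, 11 were called higher in pLB, 1 was called lower and 4 were not called. Over all tested probes, 45.6% were called, 21.9% as higher and 23.7% as lower, so that 68.8% of the member probes were higher against that background. The median log2 difference was 1.92 over the member probes and -0.01 over all tested probes. The 3 pLUM and 3 pLB values did not overlap for 13 member probes, or 81.2%, where 68.1% of all probes did not overlap. Higher by at least 16-fold were 5 of the 16, or 31.2%, against 2.93% of all tested probes. Represented each by its brightest probe, 8 of the 9 genes were higher and none lower, where 22.7% of 17668 tested genes were higher and 23% lower.

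ITGA6 needs to be set apart in these counts. It encodes CD49f, the antigen by which pLB cells were selected for and pLUM cells against, so that its difference describes the sort. Without its probes, 9 of 14 were higher, 1 was lower and the median was 1.53. Higher by at least 16-fold were then 3 of the 14, or 21.4%, and 7 of the 8 other genes were higher. These counts keep ITGB4, whose product pairs only with α6, and the part of the CD49f sort in its difference was not tested. In addition, COL17A1, which is among the probes at least 16-fold higher, passed the filter on dim probes through its pLB values alone. Of the 15 member probes above background on all 6 arrays, 10 were called higher, the ITGA6 probes included, and 1 was called lower. Over all probes under that filter, 3739 were called higher and 3897 lower, so that 49% of calls were higher. That is a share of calls. The number of all probes so tested was not counted, so the share of them called higher is not given.

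**Figure D1:**
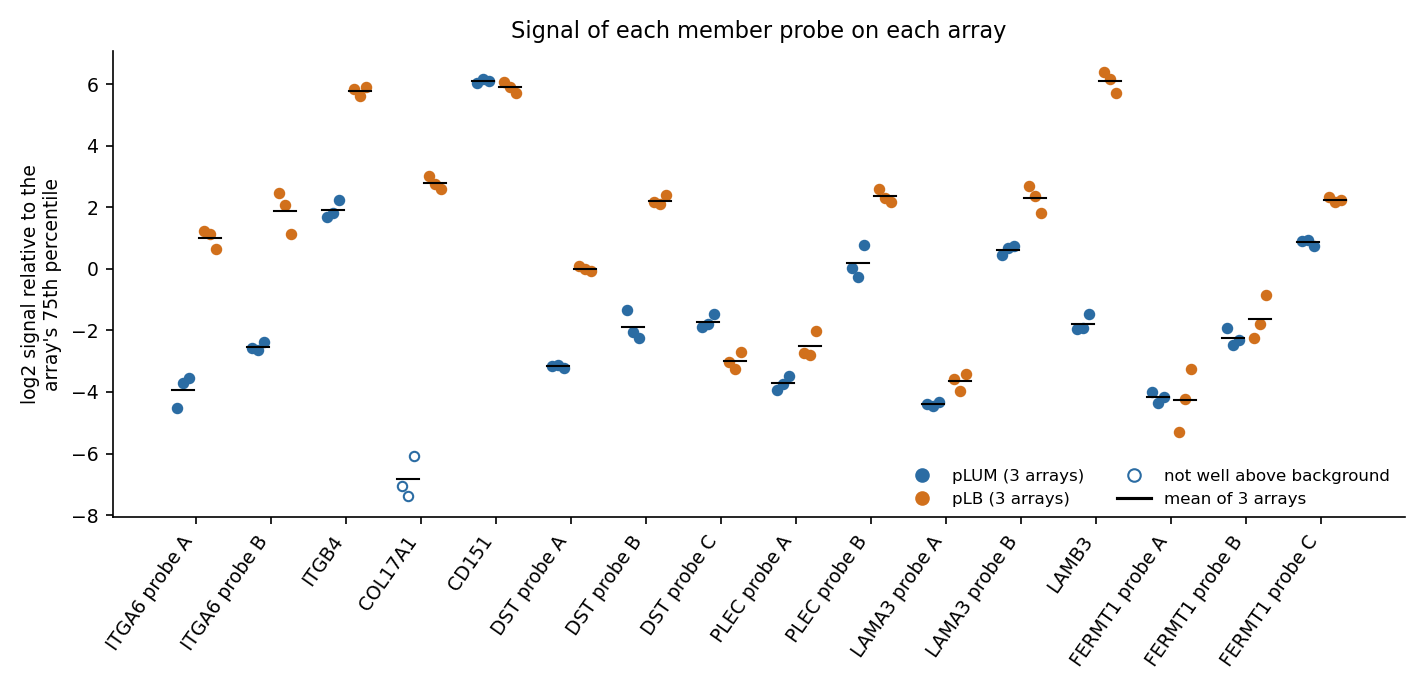
Signal of each of the 16 member probes on each of 6 arrays, as log2 relative to the array's 75th percentile, with pLUM in blue, pLB in orange, open points for spots not well above background and bars at the mean of 3 arrays. LAMB3, COL17A1, ITGB4 and the ITGA6 probes separate widely by line, CD151 overlaps, and DST probe C is the only probe with all pLB points below all pLUM points. Heights of different probes are not comparable with each other.

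The probes below, of which the first 30 of 60 bases are given as in the deposited files, are those of 3 members measured by a single probe that was called. Positions are of hg19, each probe lies in an exon of the transcript that the files name for it, and whether it is coding or untranslated was not analysed here. No letters are capitalized, since no part of a probe is singled out.
ITGB4: ttgtaaccaaagagctgggagcagcacaag
COL17A1: accacttttcaatgtctaaaaacatttgtt
LAMB3: acaaagatggtggagattggcatgccattg

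ITGB4, the β4 subunit, which pairs only with α6, was measured at chr17:73753824-73753883 (plus strand, NM_000213). Its log2 signal was 1.69, 1.83 and 2.23 in pLUM and 5.84, 5.62 and 5.90 in pLB, given as for all probes that follow in the order of the replicate numbers. The lines did not overlap, and every pLB array stood well above every pLUM array. The fitted difference was 14.6-fold (95% interval 10.6 to 20.2; log2 3.87, SE 0.20, adjusted p = 5.3e-06 from limma, n = 3 per line). The β4 transcript was well above background in both lines.

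ITGA6, the α6 subunit, was measured by probes A (chr2:173369203-173369262) and B (chr2:173370556-173370615), both on the plus strand in NM_000210. Probe A read -4.52, -3.69 and -3.55 in pLUM and 1.23, 1.15 and 0.64 in pLB. Probe B read -2.59, -2.63 and -2.36 in pLUM and 2.47, 2.09 and 1.13 in pLB. Both separated the lines, and pLB replicate 3 gave the lowest pLB value on each. As a description of the sorted antigen's transcript, the differences were 30.5-fold and 21.4-fold, and that of probe A fell from a log2 difference of 4.93 to 3.23 with normexp. The response of probe B minus that of probe A was -0.51 on the log2 scale (95% interval -1.25 to 0.24).

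COL17A1 encodes collagen XVII (BP180), the transmembrane collagen of the hemidesmosome and an autoantigen in bullous pemphigoid. Its probe lies at chr10:105791083-105791142 on the minus strand (NM_000494). The processed intensity was 3.57, 3.36 and 8.45 on the pLUM arrays, none of which was well above background, and 7077, 4727 and 2734 on the pLB arrays. On the scaled log2 axis the pLUM values were -7.05, -7.39 and -6.07 and the pLB values 3.03, 2.76 and 2.61. COL17A1 was therefore at least 289-fold higher in pLB, where the pLUM level is replaced, on each array, by the lowest signal well above background of any probe. Without that replacement, the fitted log2 difference was 9.63 (adjusted p = 1.2e-06 from limma). The scanner's own error on the pLUM spots was 41.8% to 99.7% of the intensity, against 10% on the pLB spots. Normexp background correction estimates background differently and adds an offset of 50 to every intensity. With it, the fitted log2 difference was 5.24 in place of 9.63. The part of the offset in this and the other differences with normexp was not tested.

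CD151, a tetraspanin that associates with α3β1 and α6β4, was the member gene not called. At chr11:838770-838829 (plus strand, NM_004357), it read 6.04, 6.17 and 6.10 in pLUM and 6.07, 5.91 and 5.73 in pLB. The values of the lines overlapped. The difference was -0.20 on the log2 scale (95% interval -0.59 to 0.18, adjusted p = 0.32 from limma). The interval excludes a 2-fold difference in either direction for this probe, and no spot of it was saturated.

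**Figure D2:**
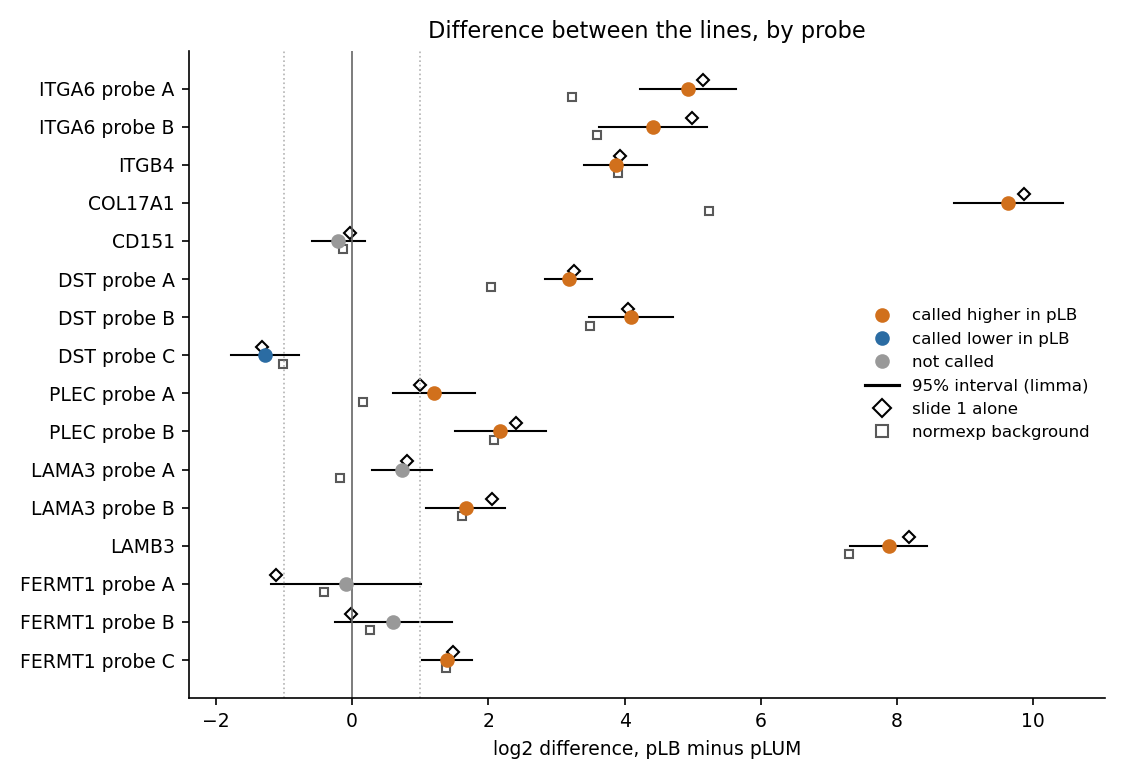
Log2 difference of pLB minus pLUM for each member probe, with the 95% interval from limma (n = 3 per line), coloured by call. Dotted lines mark 2-fold, diamonds the value from slide 1 alone (3 pLUM arrays and pLB replicate 1) and squares the value after normexp background correction. Differences run from -1.28 for DST probe C to 7.88 for LAMB3 and a fitted 9.63 for COL17A1, and the square of PLEC probe A falls below 2-fold.

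The plakins connect the integrin to keratin filaments on the cytoplasmic side. DST is a very large gene whose transcripts differ between tissues, and its epithelial product, BPAG1e (BP230), is the hemidesmosomal plakin. The array carried 3 DST probes, named A, B and C here in the order of the transcript. Probes A and B are annotated to variant 1e (NM_001723) and probe C to variant 1eA (NM_015548). The files also list 3 Ensembl transcripts for probe C, and which further DST isoforms it can detect was not analysed here, so that the variant names are those of the annotation. Their sequences are shown because they did not behave alike, again as the first 30 bases.
DST probe A: ctgttagaagtatctgagcccctgatgaca
DST probe B: ataaacttgatgaactccaagttcacagtg
DST probe C: aggaaaagtttaacatgaactaacatttct

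DST probes A (chr6:56480315-56480374) and B (chr6:56479979-56480038) lie close to each other on the minus strand. Probe A read -3.15, -3.14 and -3.23 in pLUM and 0.08, 0.01 and -0.07 in pLB. Probe B read -1.33, -2.06 and -2.24 in pLUM and 2.17, 2.10 and 2.40 in pLB. Both probes were higher on every pLB array than on any pLUM array, by 9.06-fold for A (log2 3.18, SE 0.15, adjusted p = 3.6e-06 from limma) and 17.1-fold for B (log2 4.10, SE 0.26, adjusted p = 1.4e-05). With normexp, probe A gave a log2 difference of 2.04 and remained called.

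DST probe C (chr6:56323535-56323594, minus strand), which is 156444 bases from probe B, went the other way. It read -1.90, -1.79 and -1.45 in pLUM and -3.03, -3.25 and -2.69 in pLB. All pLB values were below all pLUM values, and the signal was lower by 2.42-fold (log2 -1.28, SE 0.21, limma adjusted p = 0.0015). It was above background on all 6 arrays.

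The opposite calls were compared within arrays. The signal of probe B minus that of probe C was -0.78 to 0.57 on the log2 scale across pLUM arrays and 5.09 to 5.35 across pLB arrays, so that the 2 responses differed by 5.38. For probe A against C, the range was -1.77 to -1.25 in pLUM and 2.63 to 3.26 in pLB, a difference of 4.46. An exact two-sided permutation test of 3 arrays against 3 gave p = 0.1 for both, the smallest it can give (0.125 after adjustment over the 5 pairs compared). A limma test of probe pairs, used for all members, was added after the data were seen. Over all 6970 pairs of tested probes of the same gene, limma gave adjusted p = 0.00014 for B against C and 8.8e-05 for A against C. By that test, 33% of all same-gene pairs differed by at least 2-fold. Called in opposite directions were 1.52% of all pairs, and among the members these 2 pairs of DST probes.

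**Figure D3:**
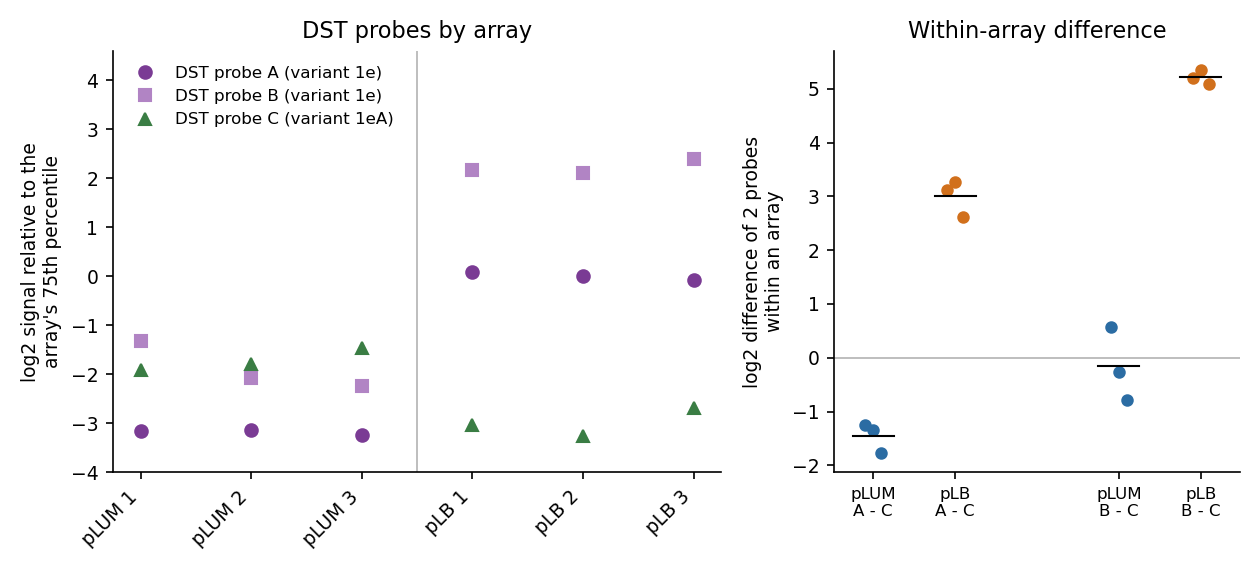
Left, log2 signal of the 3 DST probes on each array relative to its 75th percentile. Right, the within-array log2 difference of probe A or B against probe C (A - C, B - C), with bars at the mean of 3 arrays. Both probes annotated to variant 1e are higher in pLB and the probe annotated to variant 1eA is lower, so that the difference B - C lies between -0.78 and 0.57 in pLUM and between 5.09 and 5.35 in pLB.

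Plectin, the product of PLEC, is the other plakin of the hemidesmosome and also links filaments elsewhere in the cell. Its probe A (chr8:145001626-145001685) and probe B (chr8:144989621-144989680) are annotated to the same transcripts, the first of which is NM_201380. Probe B read 0.04, -0.26 and 0.78 in pLUM and 2.59, 2.31 and 2.19 in pLB. It was 4.52-fold higher without overlap (log2 2.18, SE 0.29, adjusted p = 0.00045 from limma). Probe A read -3.95, -3.73 and -3.47 in pLUM and -2.72, -2.79 and -2.02 in pLB, which is 2.30-fold higher without overlap (log2 1.20, SE 0.25, adjusted p = 0.0047). The call for probe A was lost with normexp (log2 0.16), with slide as a block (0.99, adjusted p = 0.053) and without pLB replicate 3 (0.96).

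LAMB3 gave the largest difference among members that were above background in both lines. LAMB3 encodes the β3 chain, which is found in laminin-332, and was probed at chr1:209788356-209788415 on the minus strand (NM_001017402). Its processed intensity was 122.2, 149 and 205.9 in pLUM and 73500, 50400 and 23650 in pLB. After scaling, the log2 signal was -1.96, -1.91 and -1.46 in pLUM and 6.40, 6.18 and 5.72 in pLB. LAMB3 was thus 235-fold higher in pLB (95% interval 159 to 347; log2 7.88, SE 0.24, adjusted p = 6.6e-07 from limma). The log2 difference was 7.30 to 8.18 over all alternatives tried, and 8.18 on slide 1 alone.

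LAMA3 encodes the α3 chain in a short and a long form. Its probe B (chr18:21534735-21534794, plus strand) is listed for 4 RefSeq transcripts, NM_198129 among them, and read 0.46, 0.69 and 0.74 in pLUM and 2.69, 2.37 and 1.83 in pLB. It was 3.17-fold higher without overlap (log2 1.67, SE 0.25, adjusted p = 0.00081 from limma). Probe A (chr18:21375992-21376051), annotated to ENST00000538801 and 158743 bases away, read -4.41, -4.45 and -4.33 in pLUM and -3.59, -3.96 and -3.42 in pLB. It did not reach 2-fold (1.67-fold, adjusted p = 0.011), and with normexp its log2 difference was -0.17 in place of 0.74. The responses of the probes differed by 0.93 on the log2 scale (95% interval 0.16 to 1.70, adjusted p = 0.058 from limma over all pairs), which did not pass the threshold.

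The start regions of LAMA3, LAMB3 and COL17A1 are shown as examples of members called higher in pLB, LAMA3 by its probe B only. Whether they share any control was not tested. RefSeq windows of GRCh38.p14, from 250 bases before to 50 bases after a transcript start, were listed for 5 of the 9 genes (ITGA6, COL17A1, DST, LAMA3 and LAMB3), 10 windows in all. They were searched for TGANTCA, the core bound by AP-1 factors, which reads the same on both strands. The motif was chosen with the results known. Below are the 250 bases before a start, 5′ to 3′ on the strand of the gene, with matches in capitals, from chr18:23872770-23873019 (plus) for LAMA3, chr1:209651375-209651624 (minus) for LAMB3 and chr10:104085881-104086130 (minus) for COL17A1.
LAMA3: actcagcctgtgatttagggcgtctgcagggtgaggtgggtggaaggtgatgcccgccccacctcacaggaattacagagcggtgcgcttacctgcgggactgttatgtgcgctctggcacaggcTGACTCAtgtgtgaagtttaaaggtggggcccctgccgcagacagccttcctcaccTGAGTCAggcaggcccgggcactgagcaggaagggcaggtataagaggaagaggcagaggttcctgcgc
LAMB3: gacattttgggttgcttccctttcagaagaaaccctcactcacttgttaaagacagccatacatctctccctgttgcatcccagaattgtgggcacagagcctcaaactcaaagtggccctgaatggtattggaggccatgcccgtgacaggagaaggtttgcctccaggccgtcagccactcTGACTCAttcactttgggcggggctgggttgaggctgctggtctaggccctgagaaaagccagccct
COL17A1: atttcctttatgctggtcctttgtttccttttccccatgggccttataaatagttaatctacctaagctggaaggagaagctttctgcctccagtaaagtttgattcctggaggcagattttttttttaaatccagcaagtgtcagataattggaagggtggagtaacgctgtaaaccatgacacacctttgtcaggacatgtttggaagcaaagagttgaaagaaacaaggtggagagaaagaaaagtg

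The LAMA3 window held the motif at 2 places, beginning 125 and 69 bases before the start. That of LAMB3 held it once, 67 bases before. In all, 3 of the 10 member windows held a match, these and 1 of the 3 DST windows, where it lay just after the start. The other LAMB3 starts, COL17A1 and both ITGA6 windows held none. Of all 35116 RefSeq windows, 7.71% held the motif. A match describes letters and is not a binding site, and no binding was measured in these cells.

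FERMT1 encodes kindlin-1, which activates integrins and whose loss causes the skin fragility of Kindler syndrome. It was measured by 3 probes on the minus strand, named A to C in the order of the transcript. Probe C (chr20:6055830-6055889, NM_017671) read 0.92, 0.93 and 0.73 in pLUM and 2.34, 2.18 and 2.24 in pLB. This was 2.62-fold higher in pLB without overlap (log2 1.39, SE 0.16, adjusted p = 0.00021 from limma).

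FERMT1 probes A and B were not called. Probe B (chr20:6068460-6068519), in the same transcript as C, read -1.91, -2.47 and -2.31 in pLUM and -2.25, -1.79 and -0.84 in pLB (log2 0.61, 95% interval -0.25 to 1.46, adjusted p = 0.18 from limma). Probe A (chr20:6101032-6101091, ENST00000378844) read -3.99, -4.35 and -4.16 in pLUM and -5.29, -4.24 and -3.25 in pLB (log2 -0.09, 95% interval -1.19 to 1.01, adjusted p = 0.87). The lines overlapped on both, and pLB replicate 1 was the lowest pLB array on each. The pLB arrays of slide 2 stood above that of slide 1 by 1.54 for probe A and 0.94 for probe B on the log2 scale. With slide as a block, the difference was -1.12 for probe A (adjusted p = 0.0503 from limma, not called) and -0.018 for probe B, and 1.48 for probe C. Within arrays, probe C exceeded B by 0.78 more in pLB than in pLUM (exact p = 0.2, limma adjusted p = 0.16) and A by 1.48 more (exact p = 0.1, limma adjusted p = 0.056), neither past the threshold. With slide as a block they were 1.496 and 2.60. A direction for FERMT1 thus rests on 1 of its 3 probes.

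Slide 1 alone, with 3 pLUM arrays and pLB replicate 1, gave log2 differences of 3.93 for ITGB4, a fitted 9.86 for COL17A1, 3.25 and 4.05 for DST probes A and B, -1.32 for DST probe C, 2.40 for PLEC probe B, 2.06 for LAMA3 probe B and 1.48 for FERMT1 probe C. These 8 probes kept their calls with slide as a block in limma, whereas PLEC probe A lost its call. That fit is no second check, since the other slide held only pLB arrays and the fitted differences are those of slide 1. Both therefore rest on pLB replicate 1 alone for the pLB level.

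The neighbours of these genes in cell anchorage were counted from a list of 58 genes in 7 groups, chosen by function. Of 48 tested, 30 were higher in pLB (62.5%), 3 were lower and 15 were not called, against 22.7% and 23% of all tested genes. LAMA1, KRT5, KRT14 and MMP14 were above background on no pLUM array and passed the filter through pLB alone, and KRT5 encodes the antigen of the CK5 sort. LAMA1 is named here after its values were seen. With probes limited to those above background on all 6 arrays, 22 genes of the list were higher and 2 lower. Over all probes under that filter, 49% of calls were higher, a share of calls and not of the probes tested. The number of list genes so tested was not counted. The median log2 difference was 1.33 over the tested genes of the list and 0.04 over all tested genes. The remaining 10 were above background on too few arrays to be tested. Of the called genes with the largest folds in each group, those reported are named.

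Among other laminin chains, 6 of 8 tested were higher and none lower. LAMC3, the γ3 chain, was -4.22 ± 0.20 in pLUM and 1.47 ± 0.14 in pLB (log2 signal, SD, n = 3), 51.4-fold higher by its brightest probe. Another LAMC3 probe, above background on no pLUM array, gave at least 22.2-fold. A further one was above background on only 1 array, of pLB, and was not tested. Among the other laminin receptors, 4 of 8 were higher and none lower. SDC1 (syndecan-1, a heparan sulfate proteoglycan) was -0.39 ± 0.22 in pLUM and 5.63 ± 0.38 in pLB (SD, n = 3), 64.9-fold higher. ITGA3, the α3 subunit of the integrin α3β1 that also binds laminin-332, was 21.2-fold higher in pLB.

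Basement membrane genes were mixed, with 6 of 10 tested higher and 1 lower. COL4A6, a collagen IV chain, was 187-fold higher in pLB, and FRAS1, an extracellular matrix protein of epithelial basement membranes, was 90.7-fold higher, each by its brightest probe. Their other probes, above background on no pLUM array, gave at least 1.91-fold for COL4A6 and at least 6.73-fold and 2.05-fold for FRAS1, and the mean of the probes gave log2 differences of 5.09 and 4.56 in place of 7.55 and 6.50. COL4A6 was above background on 1 of 3 pLUM arrays and FRAS1 on 2 of 3, so that both folds rest on dim pLUM spots. COL7A1 encodes collagen VII, whose anchoring fibrils hold the basement membrane to the stroma below hemidesmosomes. It was 1.36 ± 0.39 in pLUM and -0.33 ± 0.22 in pLB (log2 signal, SD, n = 3), a decrease of 3.24-fold (limma adjusted p = 0.00065) that was opposite to COL17A1 and LAMB3.

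Of the other plakins and keratin partners, 5 of 7 were higher and 1 lower. KRT5 and KRT14, the keratin pair of basal cells, were above background on no pLUM array and were at least 1754-fold and 551-fold higher in pLB, and a CK5 sort preceded RNA extraction. EPPK1 (epiplakin) was 2.81-fold lower in pLB. Tetraspanins other than CD151 were higher for 4 of 6 and lower for none, by 3.13-fold for CD81 and 2.54-fold for CD82. Of the other kindlins and the talins, 1 of 4 was higher and 1 lower. FERMT3 (kindlin-3), the form of blood cells, was 2.28-fold lower in pLB (log2 -1.19), a call that was lost with normexp (-0.78), with spike-in scaling (-0.96) and without pLUM replicate 3 (-0.997). TLN1 (talin-1) was 3.40-fold higher by its brighter probe and not called by another (log2 -0.20) or by the mean of its probes (0.78).

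Enzymes that process laminin-332 and collagen XVII were higher for 4 of 5 tested and lower for none. MMP14, a membrane metalloproteinase, was above background on no pLUM array and at least 56.5-fold higher in pLB. ADAM10, a membrane sheddase, was -1.86 ± 0.05 in pLUM and 1.14 ± 0.23 in pLB (log2 signal, SD, n = 3), 7.99-fold higher. With normexp, genes of low signal in pLUM kept their calls at smaller fitted log2 differences, of 8.24 for KRT5, 6.21 for KRT14, 3.19 for MMP14, 4.43 for COL4A6, 3.82 for FRAS1 and 3.84 for LAMC3.

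**Figure D4:**
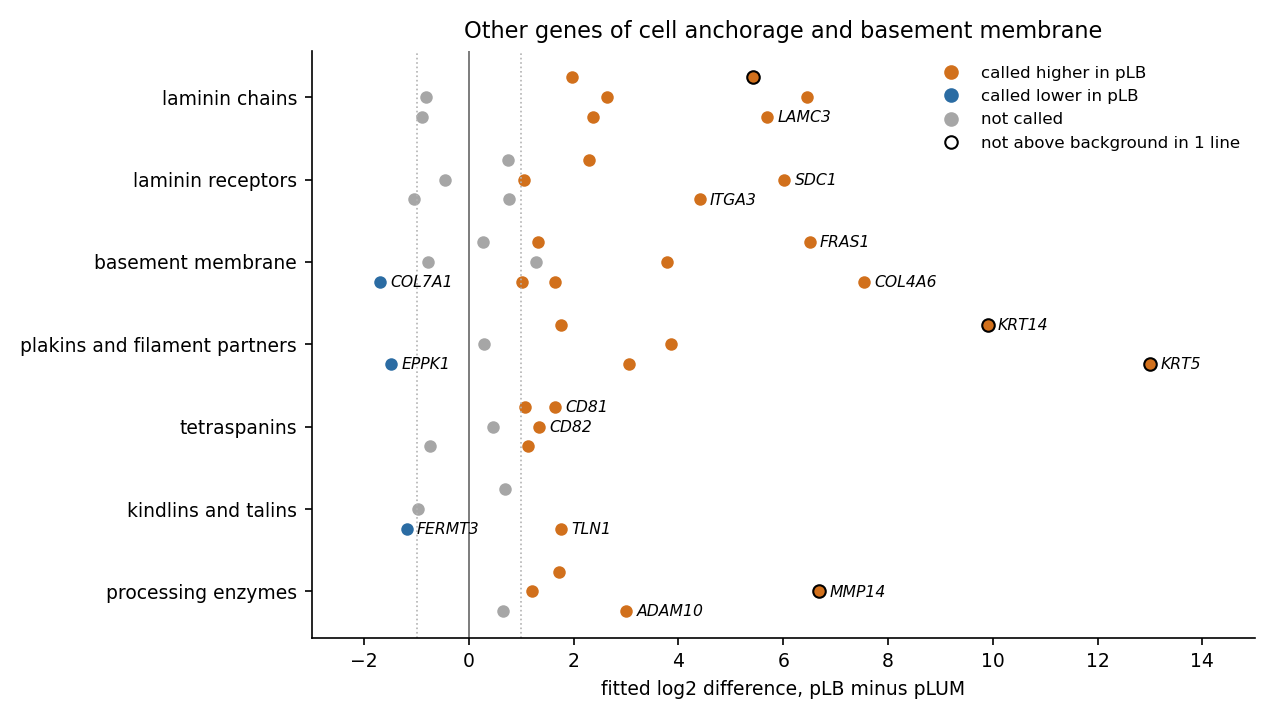
Fitted log2 difference of pLB minus pLUM for the 48 tested genes of the anchorage list by group, coloured by call, with dotted lines at 2-fold and rings for genes above background on no array of 1 line, whose fitted values are not bounds. Most points lie to the right of 0, COL7A1, EPPK1 and FERMT3 are called lower, and KRT5 and KRT14 lie farthest right.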

How the data were processed

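RNA of 3 pLUM and 3 pLB sorts was measured on Agilent 4 × 44K arrays. Per the file headers, each deposited file came from Agilent Feature Extraction 10.10.1.1 and gives a linear intensity for every spot, with background removed inside the array but no normalization between arrays, and probe positions of hg19. Intensities were scaled to the 75th percentile of the array and taken to log2. Controls were dropped, as were the 296 to 387 spots an array flagged as outliers, none of which belonged to a member, and repeated spots were averaged. Probes that 3 or more of the 6 arrays measured well above background were fitted in limma 3.58.1 (R 4.3.3), using lmFit and eBayes, a step that was tested on simulated data. For counts of genes, the probe of highest mean signal stood for the gene. Where a line had no array above background, the fold is a lower bound, in which each dim array takes its lowest signal well above background, or the probe's value where that is higher.

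Named are all members with every probe, at most 2 called, non-overlapping genes with the largest fold in each direction in each group of the anchorage list, except for 1 gene that is not reported here. The members and lists were chosen with earlier results of these data known. Alternatives were another background correction, scaling, filter, floor, threshold, test, probe rule and block, and leaving out each array in turn. The other background correction was normexp with an offset of 50.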

Additional observations from a re-analysis of the deposited data

How the results depend on the processing

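Of member probes, 10 to 12 were higher and 1 was lower under every alternative that counted probes. Counted as genes, 8 of 9 were higher and 0 lower, since probe C does not represent DST. Leaving out 1 array at a time gave 10 to 11 member probes higher and 1 lower, and for the anchorage list 27 to 29 genes higher and 3 to 5 lower, with 5 lower without pLB replicate 3. The list held 3 lower genes in the reported fit, 6 with quantile normalization, 5 with no filter on dim probes, 7 with no fold threshold, 5 with slide as a block, and 2 under each of spike-in scaling, normexp and the filter on all 6 arrays, and the cause was not tested. Its 30 higher genes became 24 with normexp, 22 with all 6 arrays above background and 32 with no fold threshold. Differences that changed sign all belonged to probes that were not called in either case: LAMA3 probe A with normexp (-0.17), FERMT1 probe B with slide as a block (-0.018), CD151 with spike-in scaling (0.028), and FERMT1 probe A with spike-in scaling (0.14) and, leaving out 1 array at a time, from -0.60 without pLB replicate 3 to 0.42 without pLB replicate 1. Between the probes of a pair, leaving out 1 array gave response differences of 5.06 to 5.74 for DST B against C, 4.30 to 4.64 for DST A against C, 0.74 to 1.28 for LAMA3, and for FERMT1 0.43 to 1.18 for C against B and 0.92 to 1.99 for C against A. Spike-in scaling, chosen after seeing the data, moved the median of all tested probes to 0.22, normexp to -0.26 and slide as a block to -0.11, and the share of calls that were higher was 48% in the reported fit, 57.6% with spike-in scaling and 42.7% with normexp. Arrays of the same replicate number did not deviate alike from the means of their lines (correlation of deviations -0.27, -0.10 and -0.22). Whether the sorts were paired cannot be told from this, since pLB replicate 1 was on another slide from pLB replicates 2 and 3. With the replicate number as a block, 11 member probes were higher and 1 lower, with no call changed among them. COL17A1 could not be tested where all 6 arrays had to be above background.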
